A study of Mus musculus with 4 samples.

Results

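Cytosolic ribosomal protein genes were compared between wild-type and Ctcf heterozygous mouse hearts. They were taken by gene symbol as Rpl or Rps followed by a number, with the letters a, x, y or l allowed after it, together with Rplp0, Rplp1, Rplp2 and Rpsa. Rows marked as pseudogenes by the ending -ps and the kinase genes named Rps6k were left out. The rule found 90 of the 55401 genes in the table, 54 of the large subunit (Rpl) and 36 of the small subunit (Rps). In the GENCODE annotation of the same genome build, 84 of the 90 were protein coding and 6 were pseudogenes that carry an ordinary symbol (Rps3a2, Rps3a3, Rps4l, Rps12l1, Rpl6l and Rpl32l).

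PolyA RNA was sequenced from the hearts of 4 C57BL/6N mice, all aged 8 weeks, with 1 library per mouse. The library protocol of the study, with mRNA captured on beads, is written for embryonic hearts. The genotypes were wild-type (2 mice) and Ctcf heterozygous (Ctcf +/R567W, 2 mice). CTCF is a zinc finger protein that binds DNA and holds chromatin loops in place. The heterozygous mice carry the substitution R567W on one Ctcf allele, made by CRISPR/Cas9 editing. The edited allele is inherited and sits in all cells of the heart, cardiomyocytes and others alike, and the sex of the mice is not given in the sources used here. Hearts are numbered 1 and 2 in each genotype as in the sample labels, and values are given in that order. The comparison asks whether heterozygous hearts differ from wild-type hearts at the age at which the study measured cardiac contraction.

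Ribosomal proteins are the protein part of the cytosolic ribosome. Each assembles with ribosomal RNA into the small subunit, which decodes the mRNA, or the large subunit, which joins the amino acids. The mRNAs of nearly all of them begin with a run of pyrimidines at the cap, the TOP motif, through which their translation is held back or released together when mTORC1 signalling changes. A few have paralogs with restricted expression, and the best known in striated muscle is Rpl3l, which takes the place of Rpl3 in ribosomes of heart and skeletal muscle.

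Annotated transcription starts of some members with large fold changes, and of 2 paralogs described further on, are shown. They are the place where a TOP run would lie. Each window has 15 bases on either side of a RefSeq start (GRCm38.p6) and is read in the direction of transcription, with its longest run of C and T in capitals.
Rpl41 (chr10:128549154-128549183, minus strand): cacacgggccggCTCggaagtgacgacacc
Rps28 (chr17:33824548-33824577, minus strand): ggtaccgcgtgcggTCTCgcgagagcgaaa
Rpl31 (chr1:39367836-39367865, plus strand): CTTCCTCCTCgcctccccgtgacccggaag
Rplp2 (chr7:141447636-141447665, plus strand): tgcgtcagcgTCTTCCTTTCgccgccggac
Rplp0 (chr5:115559452-115559481, plus strand): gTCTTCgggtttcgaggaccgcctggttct
Rpl9 (chr5:65391417-65391446, minus strand): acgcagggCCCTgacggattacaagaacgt
Rps3 (chr7:99483695-99483724, minus strand): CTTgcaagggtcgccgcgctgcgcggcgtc
Rpl22l1 (chr3:28805493-28805522, plus strand): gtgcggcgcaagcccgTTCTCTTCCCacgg
Rpl3l (chr17:24727811-24727840, plus strand): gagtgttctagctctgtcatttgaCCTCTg
Rplp2, Rpl31 and Rpl22l1 held a run of 10 pyrimidines in these windows, whereas the other windows held runs of 3 to 5. Starts of Rpl22, with runs of 5 and 4, and a second start of Rpl3l, with a run of 4, are not shown. All of these are annotated starts and were not measured in these hearts.

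RefSeq gave starts for 65 of the 90 members, 77 starts in all. A run of at least 6 pyrimidines lay within 15 bases of the start in 40 of the 77 (51.9%), against 29.1% of 32764 starts of other genes. The motif CCGGAAG, the core bound by ETS factors such as GABPA, was found on either strand of the 250 bases before the start in 20 of the 77 (26.0%), against 6.86% of other starts. The TATA box letters TATAAA were found on the coding strand in the last 50 of those bases in 1 of the 77 (1.30%), against 2.63%. The reverse of CCGGAAG contains a pyrimidine run, so the first 2 searches can hit the same bases. The 37 tested members with a run at some start had a median log2 fold change of -0.03, and the 25 with starts but no run had -0.08.

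The values are length-normalized transcript abundances (TPM) as deposited by the authors. TPM are relative to a fixed total and already divided by transcript length, and they keep no read depth, so counting error is unknown. In these hearts the genes of the mitochondrial genome (mt-) and their nearly identical nuclear copies took 78.8% and 76.0% of TPM in wild-type against 85.8% and 82.4% in heterozygous hearts. Each library was therefore divided by a median-of-ratios factor (1.09, 1.26, 0.818 and 0.903), and fold changes are differences of log2(scaled TPM + 1), heterozygous minus wild-type, which understate the change of low genes. Ctcf itself stood at 6.12 and 6.02 scaled TPM in wild-type against 7.51 and 5.76 in heterozygous hearts, which overlap, and TPM do not tell its alleles apart. Cardiomyocyte markers were abundant in all hearts (summed scaled TPM of 8 markers, 22777 and 21378 against 18751 and 22221), and lymphocyte markers were near 0 (none of 6 reached the filter). Erythroid markers stood apart in heterozygous heart 2, where their sum was 2120, against 930, 987 and 965 in the other hearts. The log2 values of any pair of libraries correlated at 0.966 to 0.981 over the 10036 genes whose mean TPM was 1 or more.

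Of the 90 members, 84 reached a mean TPM of 1 and were tested, 50 of the large and 34 of the small subunit. Rpl10l, Rpl39l, Rpl32l and Rps12l1 were listed at 0 in every heart, and Rps3a3 and Rpl6l were below the filter. Among the 82 tested members annotated as protein coding, the mean TPM over the hearts ran from 3.05 (Rpl7l1) to 629 (Rps15), with a median of 131. In the small subunit the range was narrower, from 45.6 (Rps3) to 629. Among the highest members of the small subunit were Rps15 (TPM of 708 and 717 in wild-type and 470 and 621 in heterozygous hearts) and Rps27 (538 and 645 against 405 and 491). The highest of the large subunit were Rpl36 (553 and 530 against 411 and 628), the stalk protein gene Rplp1 (613 and 577 against 381 and 473) and Rpl26 (367 and 417 against 263 and 352). After scaling, both genotypes overlapped for these 5.

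No member passed the threshold between genotypes, an adjusted p under 0.05 with a fold change over 1.5. Over all 10036 tested genes 2 were called lower (0.0199%) and 0 higher (0%). The smallest adjusted p of a member was 0.29, for the low pseudogene Rps3a2 (limma). An unadjusted p under 0.05 was reached by 2 members that were lower (Rps3a2 and Rps3) and by 0 that were higher, where 5.71% and 6.49% of all tested genes reached it. Both heterozygous hearts lay below both wild-type hearts for 21 members (25.0%), close to the 23.3% of all tested genes. Both lay above for 6 members (7.14%), where 23.7% of all tested genes did.

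The middle of the family hardly differed between genotypes. The median log2 fold change was -0.044 over the large and -0.025 over the small subunit, against -0.005 over all tested genes, and 35 members were higher and 49 lower. The split depended on the scaling. It was 0 and 84 with TPM as deposited and 3 and 81 with mt- genes removed, where the medians of all tested genes were -0.35 and -0.31. It was 49 and 35 with mt- genes and their nuclear copies removed, 45 and 39 with quantile normalization and 50 and 34 after correction for transcript length and GC content. The members spread from -0.81 (Rps3a2) to 0.44 (Rpl41), and 2 of them, Rps3a2 and Rps3, differed by more than 1.5-fold without regard to a test. In heart tissue, a smaller number of cells of one type and a smaller amount of RNA per cell cannot be told apart.

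The 2 heterozygous hearts differed from each other more than the genotypes did. Heterozygous heart 2 was above heterozygous heart 1 for 83 of the 84 members (98.8%), with Rps3a2 as the exception, whereas it was above for 51.1% of all tested genes. The median difference between the 2 hearts was 0.29 on the log2 scale, and against the wild-type mean it was -0.19 for heart 1 and 0.11 for heart 2. Heart 1 lay below both wild-type hearts for 60 members, where 40.3% of all tested genes did. Heart 2 lay above both for 49 members, where 38.7% of all tested genes did. For 30 members both held, and that share was not counted over all tested genes. The wild-type hearts were closer together, with heart 2 below heart 1 for 66 members and a median difference of -0.07. Without heterozygous heart 1 the median of the family was 0.11, with 57 members higher. Without heterozygous heart 2 it was -0.19, with 71 lower. The direction of the family between genotypes thus depended on which heterozygous heart was kept.

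**Figure D1:**
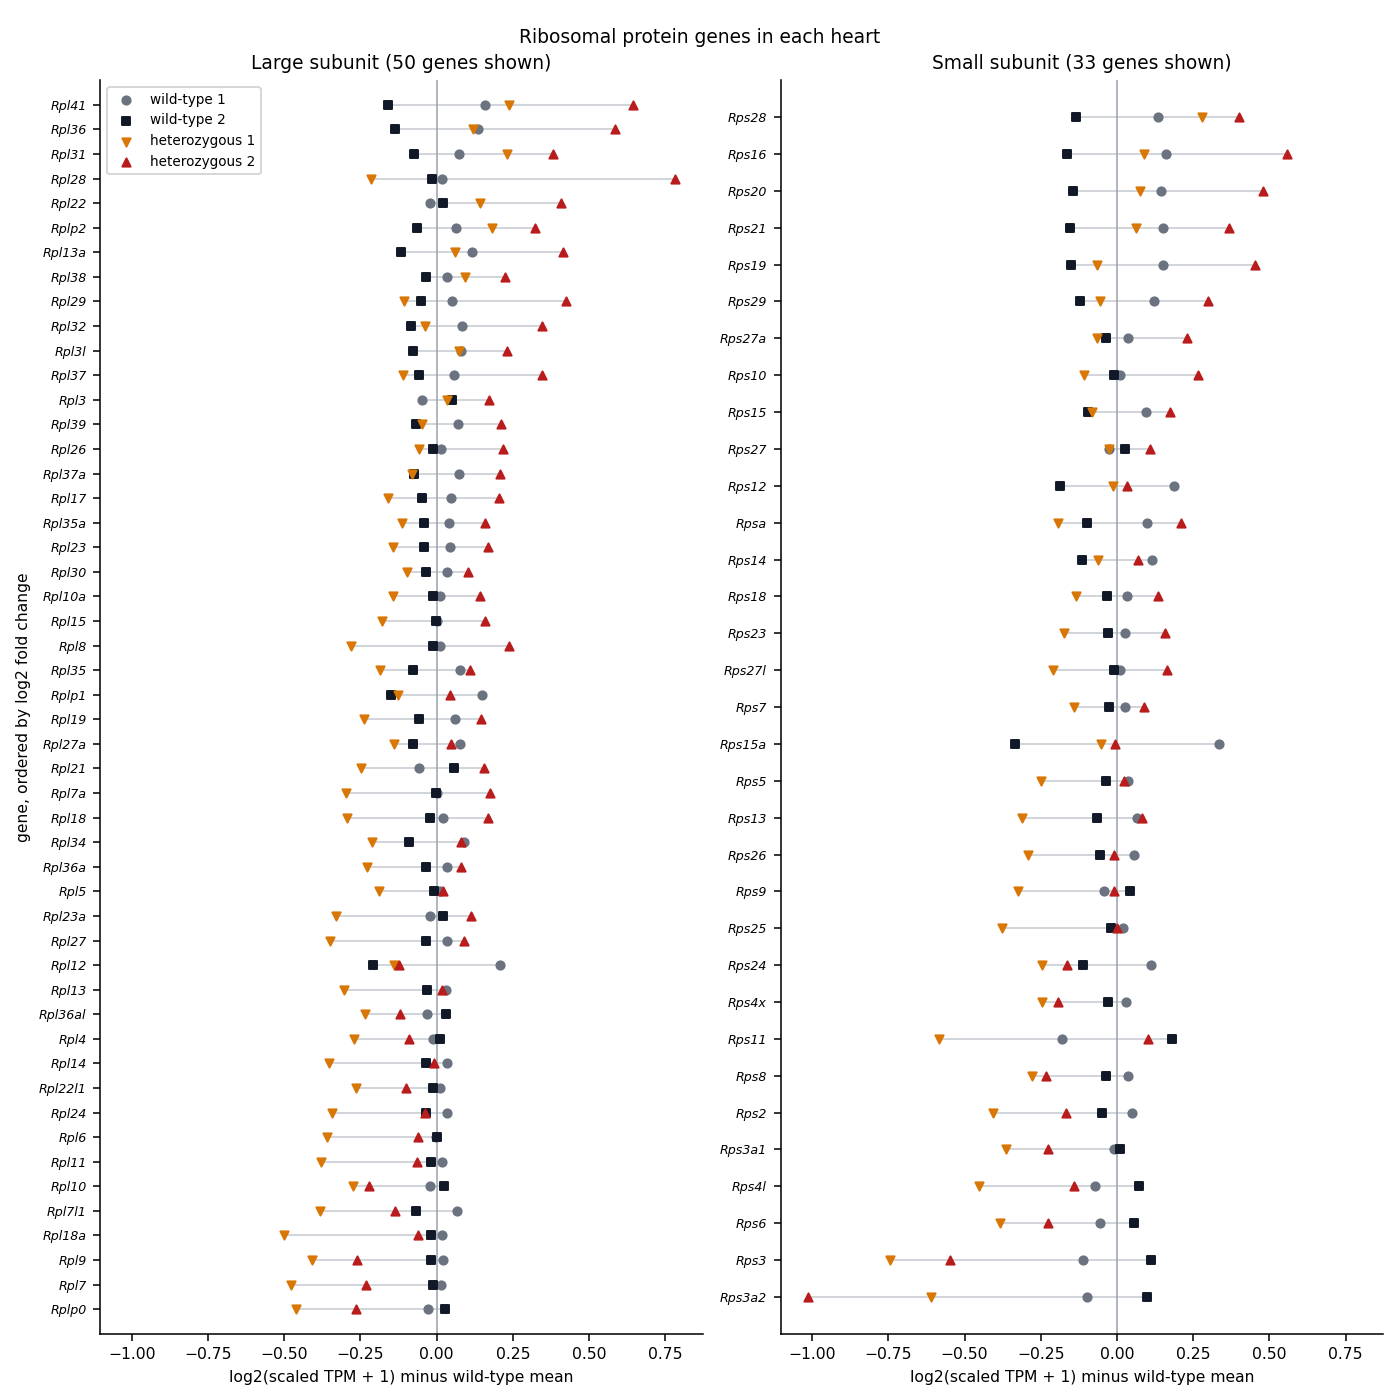
Tested ribosomal protein genes (83 drawn) in each heart, as log2(scaled TPM + 1) minus the mean of the 2 wild-type hearts (horizontal axis), with genes ordered by log2 fold change from the bottom and the grey lines spanning the 4 hearts. Heterozygous heart 2 (upward triangles) lies to the right of heterozygous heart 1 (downward triangles) for 82 of the 83 genes drawn.

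Some other gene lists showed the same order of the heterozygous hearts. Heart 2 was above heart 1 for 70 of 78 mitochondrial ribosomal protein genes (median difference 0.29) and for 33 of 37 proteasome subunit genes (0.30). It was also above for 7 of 7 elongation factor genes (0.32). Others did not, with heart 2 above heart 1 for 23 of 49 ribosome biogenesis genes (-0.051), 5 of 11 p53 targets (-0.025), 5 of 10 regulators of ribosomal protein mRNAs (-0.021) and 3 of 7 fibroblast markers (-0.18). Among all tested genes with a coding length of up to 300 bases the median difference was 0.31, and it was 0.28 from there to 450 bases and 0.23 from there to 600. The members had medians of 0.30, 0.28 and 0.36 in these classes, so they stood above all tested genes from 450 bases on. In the longer classes the medians were 0.27 for members against 0.15 from 600 to 800 bases, and 0.21 against 0.0097 from 800 to 2000. After a loess correction of each library for transcript length and GC content, heart 2 was above heart 1 for 61 of the 84 members with a median difference of 0.07. Erythroid markers had the same order, with all 5 tested higher in heart 2 and a median difference of 1.12, and the part of length or of these markers in the order of the 2 hearts was not tested beyond this correction.

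**Figure D2:**
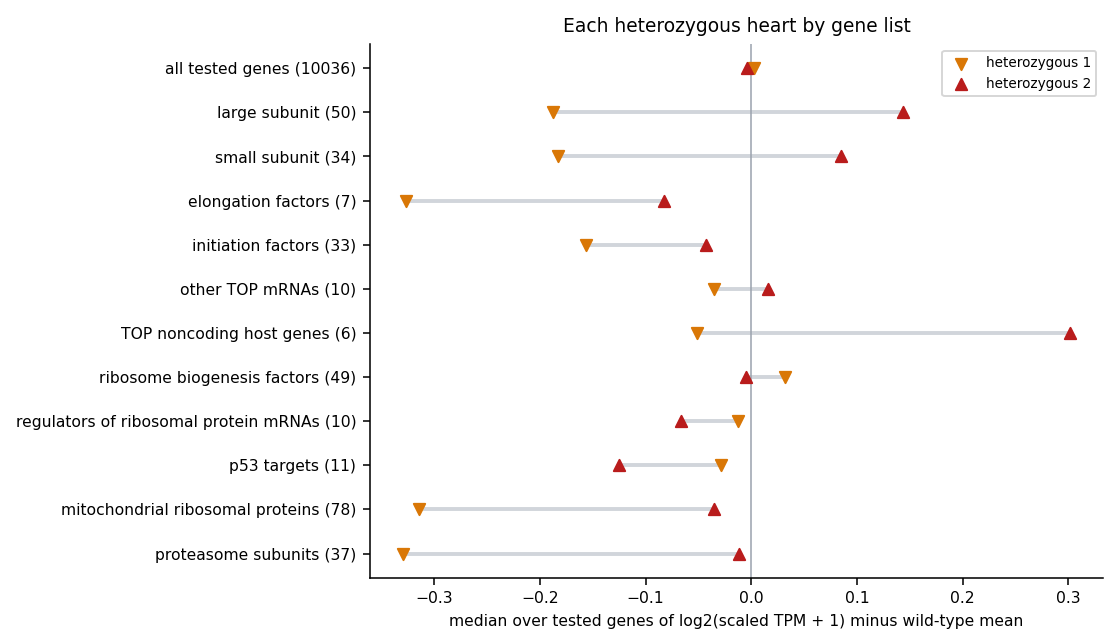
Median log2(scaled TPM + 1) minus the wild-type mean over the tested genes of each list (their number in brackets), for heterozygous heart 1 (downward triangles) and heart 2 (upward triangles). The medians of both ribosomal subunits lie on opposite sides of the wild-type mean, at -0.19 and 0.14 for the large and -0.18 and 0.08 for the small subunit.

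As a share of the whole library, the family was lower in both heterozygous hearts. Members of the large subunit took 0.772% and 0.831% of TPM in wild-type against 0.513% and 0.707% in heterozygous hearts. Members of the small subunit took 0.690% and 0.737% against 0.452% and 0.596%. Neither subunit overlapped between genotypes on this scale, and with TPM as deposited all 84 members were lower, with a median log2 fold change of -0.47 where that of all tested genes was -0.35. Outside mt- genes alone, both subunits together held 4.14% and 4.03% in wild-type against 3.07% and 3.48% in heterozygous hearts, still lower without overlap. When the shares were taken of TPM outside mt- genes and their nuclear copies, both subunits together held 6.91% and 6.54% in wild-type against 6.80% and 7.39% in heterozygous hearts. On that scale the genotypes overlapped, so the lower share did not remain once the copies were set aside as well. The large subunit held 1.12 and 1.13 times the TPM of the small subunit in wild-type against 1.14 and 1.19 times in heterozygous hearts. This ratio needs no scaling between libraries, and it was higher in each heterozygous heart than in either wild-type heart. For heterozygous heart 1 the margin was small (1.136 against 1.119 and 1.128 in wild-type), and the rise rested mainly on heart 2 (1.187). It is a ratio of sums, and the median log2 fold change was not higher in the large (-0.044) than in the small subunit (-0.025).

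**Figure D3:**
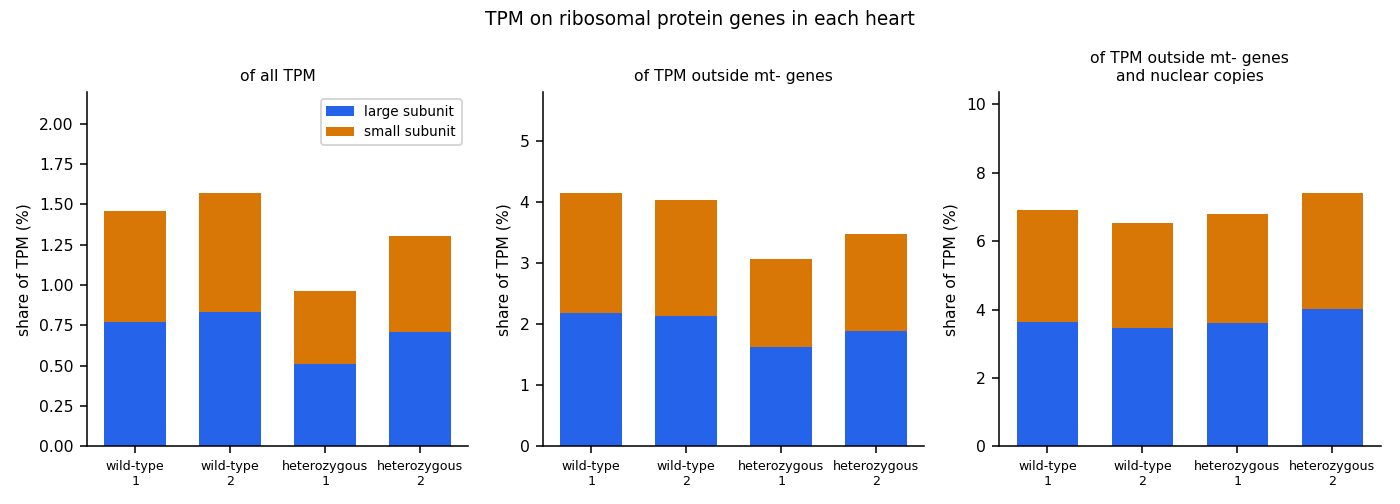
Share of TPM on large (blue) and small (orange) subunit genes in each heart, stacked, as a percent of all TPM, of TPM outside mt- genes and of TPM outside mt- genes and their nuclear copies. Both subunits together lie at 1.46%, 1.57%, 0.965% and 1.30% on the first scale, at 4.14%, 4.03%, 3.07% and 3.48% on the second, and at 6.91%, 6.54%, 6.80% and 7.39% on the last.

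The 5 largest positive fold changes among members without overlap were those of Rpl41, Rps28, Rpl31, Rpl22 and Rplp2, and Rpl38 was the only other member with both heterozygous hearts higher. Rpl41 (chr10:128548114-128549305), which encodes the shortest ribosomal protein, stood at 325 and 260 scaled TPM in wild-type against 343 and 455 in heterozygous hearts. Its wild-type hearts were already far apart, and its log2 fold change was 0.44 (SE 0.23, adjusted p = 0.466, limma). Rps28, a short protein of the small subunit, stood at 209 and 174 against 231 and 252, a log2 fold change of 0.34 (SE 0.20). Rpl31 stood at 181 and 163 against 202 and 224, with a log2 fold change of 0.31. Rpl22, which is not essential for the ribosome and has a close paralog, stood at 118 and 121 against 132 and 159, with a log2 fold change of 0.28. Rplp2 stood at 168 and 154 against 183 and 201, with a log2 fold change of 0.25. In all 5 genes, without their copies, heterozygous heart 2 was the highest of the hearts. With TPM as deposited the 5 fold changes lay between -0.19 and -0.0043, below 0 but above the median of all tested genes.

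The 5 largest negative fold changes were those of Rps3a2, Rps3, Rplp0, Rpl7 and Rpl9. Rps3 (chr7:99477896-99483738), which lines the mRNA entry of the small subunit and also acts in DNA repair, stood at 48.6 and 57.0 scaled TPM in wild-type against 31.1 and 35.7 in heterozygous hearts. The groups were well separated, and the log2 fold change was -0.65 (SE 0.18, unadjusted p = 0.0097, adjusted p = 0.335, limma). Rplp0, the base of the ribosomal stalk, stood at 140 and 146 against 104 and 119, a log2 fold change of -0.36 (SE 0.18). Rpl7 stood at 110 and 108 against 78.2 and 92.9, and Rpl9 at 176 and 171 against 131 and 145, with log2 fold changes of -0.35 and -0.34. For these 3 genes of the large subunit heterozygous heart 1 was the lowest, and the gap between the genotypes was wider than that between the wild-type hearts. Rps3a2, an intronless copy annotated as a processed pseudogene, was low throughout, at 3.39 and 4.03 against 2.08 and 1.33.

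The stalk, which recruits translation factors, is built from Rplp0, Rplp1 and Rplp2, and the 3 genes differed in direction. Rplp0 was lower and Rplp2 higher in both heterozygous hearts, as given above. Rplp1 stood at 564 and 458 scaled TPM in wild-type against 466 and 524 in heterozygous hearts, which overlap (log2 fold change -0.04, adjusted p = 0.945, limma). Rpsa, a small subunit protein that also serves as a laminin receptor, stood at 114 and 99.1 against 92.7 and 123, with both wild-type hearts inside the range of the heterozygous hearts.

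Rpl5 and Rpl11, which bind MDM2 with 5S RNA when ribosome assembly fails, did not pass the threshold. Rpl5 stood at 29.0 and 28.6 scaled TPM in wild-type against 25.1 and 29.2 in heterozygous hearts, which overlap. Gm15500, an annotated copy of Rpl5 at 100% identity, held more TPM than Rpl5 (76.2 and 86.6 against 37.1 and 50.4), and summing the copies with Rpl5 moved its log2 fold change from -0.085 to -0.34. Rpl11 stood at 129 and 126 against 97.8 and 122, so that the genotypes did not overlap, with a log2 fold change of -0.22 (adjusted p = 0.649, limma). Rps19, the gene most often mutated in Diamond-Blackfan anaemia, stood at 95.9 and 77.6 against 82.4 and 118, which overlap. Of the 18 listed p53 target genes 11 were tested, 0 were called and the median log2 fold change was -0.06.

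Rpl3l was more abundant than Rpl3 in every heart. Rpl3l (chr17:24727820-24736143) stood at 89.8 and 93.1 TPM in wild-type against 67.2 and 83.0 in heterozygous hearts. Rpl3 (chr15:80077791-80091868), the ubiquitous form, stood at 49.1 and 61.0 against 39.2 and 47.7. The ratio of Rpl3l to Rpl3 was 1.83 and 1.53 in wild-type against 1.72 and 1.74 in heterozygous hearts. Both heterozygous ratios lay between the wild-type ratios, and the difference of the log2 ratios was 0.05 (exact permutation test over the 4 hearts, two-sided, p = 1). Both genes had small positive fold changes after scaling, 0.15 for Rpl3l and 0.10 for Rpl3, each with overlapping genotypes.

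Of 6 paralog pairs in which both genes were tested, 1 had ratios that did not overlap between genotypes. Rpl22l1 (chr3:28805436-28807424) stood at 36.8 and 41.9 TPM in wild-type against 22.7 and 28.2 in heterozygous hearts, and Rpl22 (chr4:152325742-152334071) at 128 and 153 against 108 and 143. The ratio of Rpl22l1 to Rpl22 was 0.288 and 0.275 in wild-type against 0.211 and 0.197 in heterozygous hearts. The hearts of a genotype lay close together and the genotypes apart, by -0.46 on the log2 scale (two-sided exact permutation test with p = 0.333, which is the lowest value 2 against 2 hearts can reach, and adjusted p = 1 over the 6 pairs). The fitted changes of the 2 genes ran in opposite directions, 0.28 for Rpl22 and -0.18 for Rpl22l1, and neither passed the threshold. A ratio within a library does not depend on the scaling between libraries.

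The other ratios overlapped. Rpl36al stood at 0.874 and 0.958 of Rpl36a in wild-type against 0.909 and 0.797 in heterozygous hearts. Rps27l stood at 0.144 and 0.137 of Rps27 against 0.123 and 0.146, and Rpl7l1 at 0.0317 and 0.0286 of Rpl7 against 0.0292 and 0.0312. Rps4l, annotated as a transcribed pseudogene, stood at 0.0441 and 0.0514 of Rps4x against 0.0393 and 0.0487. These pairs are similar in sequence, so the split of reads between a paralog and its partner is uncertain. The testis paralogs Rpl10l and Rpl39l were listed at 0 in all hearts.

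**Figure D4:**
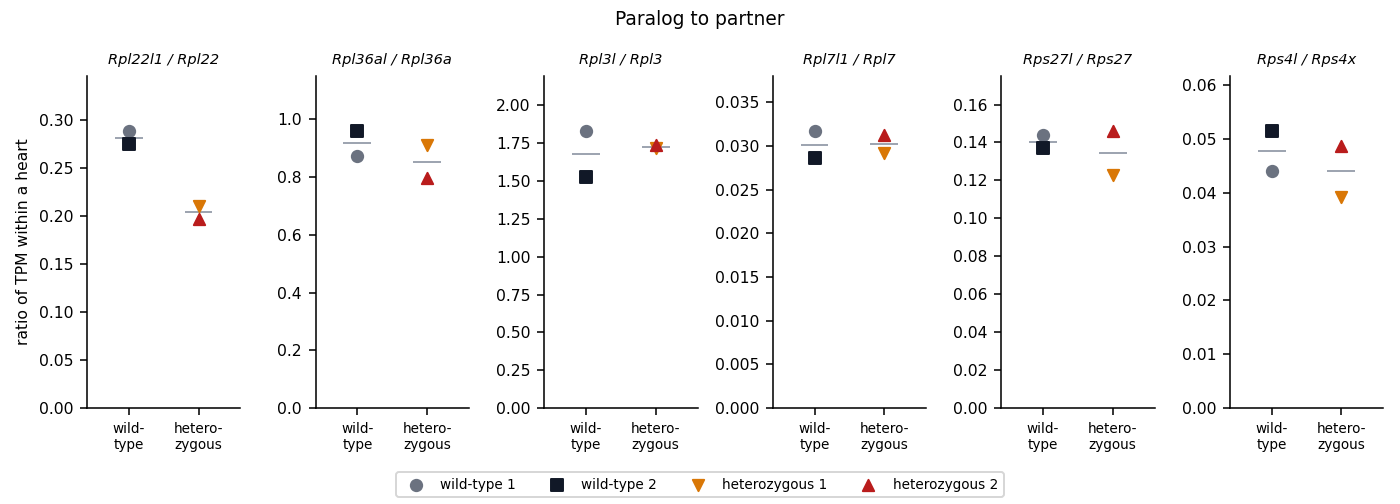
Ratio of TPM of each paralog to its partner within each heart, for the 6 pairs with both genes tested, each panel on its own axis from 0. Points are hearts and grey lines the genotype means. For Rpl22l1 over Rpl22 the wild-type hearts lie at 0.288 and 0.275 and the heterozygous hearts at 0.211 and 0.197, and in the other panels the genotypes overlap.

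Within the family, the fold change of the mean of the heterozygous hearts went with coding length. Of the 10 members with a coding length of up to 300 bases 9 were higher, with a median log2 fold change of 0.12, and only Rps27l was lower. Of the 15 with a coding length over 600 and up to 800 bases 14 were lower, with a median of -0.18. These class medians differed between the heterozygous hearts. That of the shortest class was -0.036 in heart 1 and 0.26 in heart 2, and that of the 600 to 800 base class was -0.28 and -0.0070, so the higher short genes rested on heart 2 and the lower long genes on heart 1. Across 82 members with a coding length, Spearman's rho between coding length and log2 fold change was -0.52 (Pearson's r with log2 length -0.52). It was -0.47 in the large and -0.58 in the small subunit. These are correlations across genes that share the same 4 libraries, so the genes are not independent.

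The relation was present in each heterozygous heart against the wild-type mean, with rho of -0.54 in heart 1 and -0.44 in heart 2. The wild-type hearts also differed along it, with rho of 0.41 for wild-type heart 2 minus heart 1. With any one heart left out, rho stayed between -0.55 and -0.42. It was -0.61 after the correction for transcript length and GC content, and it was weaker with whole transcript length (-0.24). Among 4298 other tested genes in the same range of coding lengths rho was 0.14, among mitochondrial ribosomal protein genes -0.15 (n = 78) and among proteasome genes 0.22 (n = 37). Long members were not all lower. Rpl3 and Rpl3l, with coding lengths of 1209 and 1221 bases, had fold changes above 0, whereas Rpl4, the longest at 1257 bases, had -0.18.

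**Figure D5:**
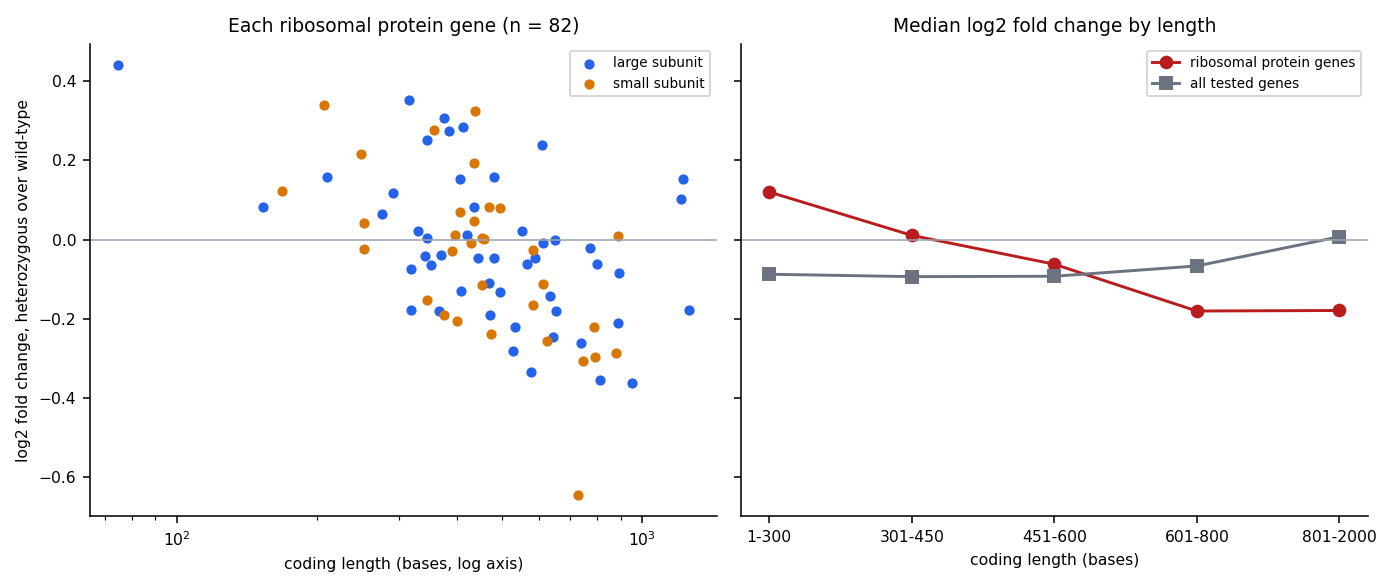
Log2 fold change of each of 82 ribosomal protein genes against coding length in bases on a log axis (left), and median log2 fold change by coding length for ribosomal protein genes and all tested genes (right). The ribosomal protein genes go from 0.12 in the shortest class to -0.18 in the 2 longest classes, whereas all tested genes go from -0.09 to 0.01.

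Ribosomal protein genes have many processed copies in the genome, and reads of a gene and a near-identical copy cannot be divided with certainty. The table held 759 copies, taken by sequence match or, where there was none, by a symbol ending in -ps. Of these, 304 were above 0 in some heart and 80 had a mean TPM of at least 1. They carried 6.22% and 7.24% of the TPM of the family and its copies in wild-type against 7.01% and 5.92% in heterozygous hearts. Rows marked -ps with a mean of at least 50 TPM were Rps23-ps1 (121 and 140 TPM against 71.3 and 71.1), Rpl38-ps2 (32.6 and 99.0 against 130 and 121), Rpl27-ps3 (78.1 and 142 against 63.2 and 71.0) and Rpl31-ps8 (82.8 and 82.8 against 45.0 and 73.7). All 4 matched their parent at 100% identity over their whole length. Rpl38-ps2 in particular was split unevenly, with wild-type heart 1 far below the other hearts. Gm10443, a copy of Rps28 at 100% identity, was also split unevenly (17.4 and 90.1 TPM in wild-type against 68.6 and 0 in heterozygous hearts). When copies were added to their parent, the log2 fold change of Rpl38 went from 0.16 to 0.49 and that of Rps28 from 0.34 to 0.25. That of Rps23 went from -0.01 to -0.23, that of Rpl31 from 0.31 to 0.22 and that of Rpl36a from -0.074 to -0.22, beside the change of Rpl5 given above. Gm15500 and Gm10443 were named after their values were seen. No member passed the threshold in that fit, where the smallest adjusted p was 0.274 (limma).

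Fau, which makes a ribosomal protein fused to a ubiquitin-like protein, and Rack1, a scaffold on the small subunit, fall outside the naming rule. Rack1 stood at 97.2 and 95.9 scaled TPM in wild-type against 108 and 145 in heterozygous hearts, a log2 fold change of 0.37 (adjusted p = 0.486, limma). Fau stood at 143 and 144 against 144 and 197. In both genes both heterozygous hearts were higher, with heart 2 the highest. For Fau the margin of heterozygous heart 1 was slight (143.8 against 143.0 and 143.7 in wild-type), and the rise rested on heart 2.

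Other genes of translation and ribosome assembly were read beside the family, and none was called in any of these lists. Their directions are those after scaling. Of 7 elongation factor genes 2 were higher and 5 lower, with a median log2 fold change of -0.13. Eef2, which moves the ribosome along the mRNA, stood at 71.1 and 85.0 scaled TPM against 54.3 and 58.3 (log2 fold change -0.46, adjusted p = 0.394, limma). Eef1a2, the muscle and brain form of the factor that delivers aminoacyl-tRNA, stood at 65.5 and 75.4 against 42.5 and 56.6, a log2 fold change of -0.51. Both genes were lower in both heterozygous hearts. Of 33 initiation factor genes 12 were higher and 21 lower, with a median of -0.08. The subunits of eIF3 differed in direction, with Eif3e at 13.8 and 14.2 against 10.8 and 10.6 and Eif3l at 9.49 and 9.32 against 11.4 and 10.9.

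Of 49 tested ribosome biogenesis genes 29 were higher and 20 lower, with a median log2 fold change of 0.08. Nop56, a core protein of box C/D snoRNPs, stood at 22.8 and 21.5 scaled TPM in wild-type against 33.0 and 32.5 in heterozygous hearts, with close replicates and a log2 fold change of 0.54 (SE 0.16, adjusted p = 0.335, limma). Nop2, an rRNA methyltransferase, stood at 1.82 and 2.22 against 3.72 and 3.55, a log2 fold change of 0.62. Ebna1bp2, which acts in large subunit assembly, stood at 4.96 and 5.45 against 2.40 and 3.45, a log2 fold change of -0.67. For these 3 genes the genotypes were separated while the adjusted p stayed above the threshold.

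The lists that share the TOP motif gave small medians. Of 10 other TOP mRNAs 5 were higher and 5 lower (median 0.07), with Tpt1 at 564 and 510 scaled TPM against 578 and 701, and Hnrnpa1 at 14.1 and 14.2 against 11.4 and 12.0. Of 6 noncoding host genes with a TOP start, which carry snoRNAs in their introns, 5 were higher (median 0.14), with Snhg1 at 8.82 and 9.67 against 10.5 and 14.7. Among 10 tested regulators of ribosomal protein mRNAs 3 were higher and 7 lower (median -0.09). Eif4ebp1, a repressor of cap-dependent translation, stood at 5.64 and 6.07 against 3.91 and 5.16, and Rps6kb1 at 3.47 and 4.03 against 4.68 and 4.10.

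Genes of the mitochondrial ribosome had a lower median than those of the cytosolic ribosome. Of 78 mitochondrial ribosomal protein genes, which serve the translation of mt- mRNAs, 20 were higher and 58 lower, with a median log2 fold change of -0.16. Genotypes did not overlap for 32 that were lower (41.0%) and 6 that were higher (7.69%), against 23.3% and 23.7% of all tested genes. Against the wild-type mean, the median of the list was -0.31 in heterozygous heart 1 and -0.035 in heart 2, so the lower median rested mainly on heart 1. Mrpl44 stood at 6.61 and 6.67 scaled TPM in wild-type against 3.58 and 3.84 in heterozygous hearts, a log2 fold change of -0.70 (SE 0.13, adjusted p = 0.271, limma), and Mrps23 at 32.4 and 32.4 against 38.7 and 42.3. Of 37 proteasome genes 10 were higher and 27 lower, with a median of -0.16. Against the wild-type mean, their median was -0.33 in heterozygous heart 1 and -0.011 in heart 2. Psmb2 stood at 18.8 and 23.5 scaled TPM against 11.4 and 14.2, and Psmc6 at 23.3 and 24.8 against 39.3 and 26.5. The difference between these lists and the cytosolic ribosomal protein genes was not tested.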

How the data were processed

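The authors used Trim Galore (0.6.10) for trimming, STAR (2.7.4a) for alignment against mm10 and RSEM (1.2.28) for quantification, and deposited 1 table of TPM values. The annotation release is not given in the sources used here, and read counts were not analysed here, so no count model was fitted. Genotypes were taken from the sample labels.

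TPM were divided by median-of-ratios factors computed over tested genes above 0 in every library, and log2 was taken after adding 1. The 10036 genes whose mean TPM was 1 or more entered a limma (3.58.1, R 4.3.3) fit with a trended eBayes step. Tests were two-sided and adjusted by Benjamini-Hochberg over all of these genes. Ratios of paralogs were compared by exact permutation tests over the hearts. Where nothing says otherwise, p-values and standard errors are from limma and rest on 2 mice in each genotype. Their variance combines the spread between those mice with a trend over all tested genes (prior degrees of freedom 4.638). Identifiers were matched to GENCODE M21 (55141 without version), and starts were taken from RefSeq (GRCm38.p6). Copies were found with BLAST (2.17.0) at 95% identity over 80% of the length. Rows marked -ps without such a match were assigned to the member named in their symbol. Scripts were tested on simulated data. Python was 3.11.15.

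Members and lists were chosen with earlier results of these data known. Named genes were the paralogs with their partners, the 5 largest rises and falls without overlap, the 3 highest of each subunit, Rplp0, Rplp1, Rplp2, Rpsa, Rpl5, Rpl11, Rps19, Fau, Rack1 and copies with a mean TPM of at least 50 marked -ps. From each companion list up to 2 rises and 2 falls without overlap were picked, and only some of these are printed. The relation with coding length and the start windows were examined after values were seen. Alternatives covered the pseudocount, the filter, the scaling, length and GC correction, a replicate block, summed copies, eBayes options, thresholds and each library left out. Values of 1 named member and 1 companion gene are not reported here, and both stay in the counts.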

Additional observations from a re-analysis of the deposited data

How the results depend on the processing

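No member was called under any of the alternatives, at any of the thresholds tried. With TPM as deposited 25 members reached an unadjusted p under 0.05 and were lower, and 70 were lower without overlap and 0 higher, where 33.3%, 67.8% and 2.32% of all tested genes were. With mt- genes removed these counts were 35, 71 and 0 (28.5%, 58.9% and 4.41% of all tested genes). With mt- genes and nuclear copies removed 4 members reached the unadjusted p and were higher, and 25 were higher without overlap (8.01% and 27.3%). The same 2 counts were 5 and 28 after length and GC correction (7.82% and 24.5%) and 6 and 23 with quantile normalization (6.51% and 23.7%). A mean TPM of at least 5 left 1 member with an unadjusted p that was lower (6.42% of all tested genes), since Rps3a2 was no longer tested. Summed copies gave 1 that was higher (6.53%). Shares of TPM outside mt- genes and nuclear copies turned from lower to higher, with log2 ratios of 0.10 (large) and 0.052 (small).

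With 1 library left out, the lower members without overlap numbered 21 to 60 and the higher 6 to 49, and those with an unadjusted p numbered 1 to 16 and 0 to 8. Over all tested genes 33.0% to 40.3% were then lower and 32.8% to 41.1% higher without overlap. Relative to all tested genes, the median of the large subunit ran from -0.19 to 0.15 and that of the small from -0.19 to 0.089. The log2 ratio of the shares ran from -0.64 to -0.18 (large) and from -0.66 to -0.26 (small). The log2 difference of Rpl3l over Rpl3 ran from -0.081 (without wild-type heart 2) to 0.18. With 1 library in a genotype, that library is assumed to vary like the others.

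Same-numbered hearts share only a number, and the correlation of their deviations was 0.101. With the replicate number as a block no call changed, the smallest adjusted p was 0.205 (limma), and 2 members reached the unadjusted p, both lower. Of all tested genes 7.12% reached it and were lower, and 7.20% were higher. The 2 paired log2 differences of Rpl3l over Rpl3 had opposite signs, -0.092 for hearts 1 and 0.19 for hearts 2. Their mean, 0.05, equals the unpaired difference by construction. The block with length and GC correction gave 6 higher members at the unadjusted p and 28 higher without overlap (8.27% and 24.5% of all tested genes).

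Of 691 values of 33 named members under alternatives, 660 kept their direction and side of the threshold and 31 changed sign relative to all tested genes. With TPM as deposited Rpl26 was -0.016, Rpl39 -6.6e-06, Rps12 -0.085, Rps15 -0.052, Rps27 -0.055 and Rpsa -0.086. With mt- genes removed Rps12 was -0.014 and Rpsa -0.017. After length and GC correction, with and without the block, Rpl36a was 0.097, Rplp1 0.091 and Rps27l 0.13, and quantile normalization gave Rplp1 0.11. With each library left out in turn, values ran from -0.060 to 0.22 for Rpl26, -0.040 to 0.35 for Rpl32, -0.23 to 0.084 for Rpl36a, -0.051 to 0.22 for Rpl39, -0.19 to 0.026 for Rpl5, -0.18 to 0.11 for Rplp1, -0.17 to 0.20 for Rps12, -0.085 to 0.18 for Rps15, -0.068 to 0.46 for Rps19, -0.028 to 0.11 for Rps27, -0.21 to 0.17 for Rps27l and -0.20 to 0.21 for Rpsa. The cause of these changes was not tested. TPM keep no depth, so what depth limits is unknown.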
